A study of Mus musculus with 16 samples.

Results

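The comparison described here asked how mouse pancreas with both Daxx and Men1 floxed differed from pancreas with Men1 floxed alone. It set 4 DMC libraries against 4 MC libraries, chosen by the sample titles, so 8 of the 16 libraries in the series took part. DMC mice carried Daxx fl/fl, Men1 fl/fl and the Pdx1-Cre transgene, and MC mice carried Men1 fl/fl with Pdx1-Cre, so that both groups shared floxed Men1 and Cre and differed by the floxed Daxx alleles. Another 4 DC libraries (Daxx fl/fl with Pdx1-Cre) and 4 WT libraries (wild type, with no Cre named in the label) were used to show the same genes with Daxx floxed and Men1 intact. Every animal was 6 to 10 weeks old at treatment and received caerulein, a peptide that overstimulates the enzyme-secreting acinar cells, at 50 ug/kg in 4 hourly injections on 3 days a week for 3 weeks. Whole pancreas was collected 5 days after the last injection. The animals are called independent biological replicates in the design, and all comparisons are between genotypes in caerulein-treated pancreas.

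The protein Daxx escorts the replacement histone H3.3. Together with its partner Atrx it deposits H3.3 in heterochromatin, at telomeres and over silenced repeats. Men1 encodes menin, a scaffold of the MLL histone methyltransferase complexes and of other chromatin regulators. Both genes, together with ATRX, are among those most often mutated in human pancreatic neuroendocrine tumours. Pdx1-Cre recombines in the epithelium of the pancreas (acinar, duct and islet cells) and leaves stromal, endothelial and immune cells unrecombined, so a count from whole pancreas mixes both kinds of cell.

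The 8 libraries held 13481063 to 22473478 recovered reads, 18968266 to 22473478 in DMC and 13481063 to 21302532 in MC, with 36.93% to 45.13% of the reads falling on the top 10 genes in DMC and 36.75% to 44.81% in MC. All values below are normalized counts, which are read counts divided by a size factor for each library, and differences are of log2(normalized count + 1), DMC minus MC unless stated. Digestive enzyme transcripts summed to 7103940 to 14305800 normalized counts in DMC libraries and 7049640 to 12199300 in MC libraries, so the defining transcripts of the labelled tissue were abundant in both groups. Y-linked genes were expressed in DMC replicates 1 and 3 and in MC replicates 1 and 2, that is in 2 of 4 libraries of each group. The clock level is a contrast, the average log2 of some circadian clock genes minus the average of certain others. It ranged from -0.68 to 3.47 in DMC and from -0.79 to -0.18 in MC. DMC replicates 1 and 2 lay above every MC library. The level of the whole clock gene list, defined below, ran from -0.34 to 0.39 in DMC and from -0.29 to -0.09 in MC.

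The floxed genes were examined first. Daxx (chromosome 17, 33909414 to 33915590, GRCm38) had 160.3, 225.3, 179.0 and 161.7 normalized counts in the DMC libraries, against 223.0, 249.2, 230.4 and 281.5 in the MC libraries. DMC replicate 2 lay just inside the MC range and the other 3 DMC libraries below it. Daxx thus stood at 73.8% of its MC level (181.6 ± 30.4 in DMC, 246.0 ± 26.1 in MC, SD, n = 4 each), a difference that did not pass the test (log2 difference -0.44, limma adjusted p = 0.71; exact permutation p = 0.0571, two-sided). Reads were counted per gene, so removal of the floxed exons themselves was not measured. Men1 (chromosome 19, 6334979 to 6340891), floxed in both groups, had 156.6, 175.2, 160.7 and 178.2 normalized counts in DMC and 127.4, 115.9, 136.4 and 147.3 in MC, against a mean of 367.8 in WT. The DMC libraries were all above the MC libraries, at 127.3% of their mean (exact permutation p = 0.0286, two-sided, the smallest that 70 assignments allow; limma adjusted p = 0.748). Men1 was at 45.6% of WT in DMC and 35.8% of WT in MC. Atrx and the H3.3 genes H3f3a and H3f3b lay close together in both groups, with log2 differences of 0.12, 0.08 and 0.05.

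Across the whole table Bglap3 rose, and it was the 1 gene past an adjusted p of 0.05 among 14220 tested (0.00703%), with 1 of 14220 higher (0.00703%) and 0 lower. At an unadjusted limma p under 0.05 there were 792 genes (5.57% of those tested), 454 of them higher (3.19%) and 338 lower (2.38%). At an unadjusted p under 0.01 there were 220 genes (1.55%). In 569 genes (4%) the DMC and MC libraries did not overlap, 305 with every DMC library higher (2.14%) and 264 with every DMC library lower (1.86%). The median difference over all tested genes was 0.01 and 51.1% of differences were positive. Between adjusted p values of 0.05 and 0.06 lay 10 further genes. Those are given below as values, not as changes. Of the other tools run, edgeR called 1 gene and DESeq2 56.

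Bglap3 is a member of the osteocalcin gene family, whose best known member Bglap encodes the bone matrix protein osteocalcin. It lies on the minus strand of chromosome 3, 88368616 to 88372743 (ENSMUSG00000074489.9). The family consists of near-identical copies. The first annotated transcript of Bglap3 (717 bases) aligned to that of Bglap with 96.4% identity over 439 positions and to that of Bglap2 with 97.7% identity over 471 positions. How reads shared by the copies were assigned is not given in the sources used here, and Bglap and Bglap2 were not analysed here, so the count of Bglap3 could include reads of its copies. The upstream start of Bglap3 and the start of Bglap differ more than the transcripts of these genes, and the start of Bglap2 was not compared. RefSeq promoter windows on GRCm38.p6, which run from 250 bases before to 50 after a transcript start, list 3 starts for Bglap3. The outer ones, chr3:88372692-88372991 and chr3:88369782-88370081, are shown with the window of Bglap, chr3:88384417-88384716, because they show where the called gene differs from its best known copy. All 3 are on the minus strand and read 5′ to 3′. Capitals mark runs of at least 20 bases shared by the upstream and downstream Bglap3 windows, of which the Bglap window has none.
Bglap3 upstream start: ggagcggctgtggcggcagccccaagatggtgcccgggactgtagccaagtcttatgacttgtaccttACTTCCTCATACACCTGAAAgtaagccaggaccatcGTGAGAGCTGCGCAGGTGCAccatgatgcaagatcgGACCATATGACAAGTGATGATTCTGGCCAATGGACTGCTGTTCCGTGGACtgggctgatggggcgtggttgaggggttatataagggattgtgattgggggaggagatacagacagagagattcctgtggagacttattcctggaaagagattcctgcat
Bglap3 downstream start: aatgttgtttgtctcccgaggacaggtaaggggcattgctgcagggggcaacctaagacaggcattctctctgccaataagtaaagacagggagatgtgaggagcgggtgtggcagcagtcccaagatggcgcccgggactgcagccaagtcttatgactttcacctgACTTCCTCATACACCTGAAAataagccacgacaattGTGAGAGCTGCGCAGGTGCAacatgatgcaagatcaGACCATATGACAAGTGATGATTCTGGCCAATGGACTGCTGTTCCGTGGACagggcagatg
Bglap: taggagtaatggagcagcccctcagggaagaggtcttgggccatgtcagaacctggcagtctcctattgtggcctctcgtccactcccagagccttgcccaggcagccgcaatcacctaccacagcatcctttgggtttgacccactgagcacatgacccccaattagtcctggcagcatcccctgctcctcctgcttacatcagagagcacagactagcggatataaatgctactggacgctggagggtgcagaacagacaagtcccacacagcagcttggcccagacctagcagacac
The outer Bglap3 starts lie 2910 bases apart, and their windows aligned over 200 positions with 92.0% identity, the longest identical run being 50 bases. A run of 20 bases of the upstream window, on either strand, was found in windows of 5 other gene symbols, in 0.0152% of 32851 windows. Of those 5 only Pard3, a cell polarity gene, was tested, and it had a log2 difference of -0.11.

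Bglap3 had 1770.4, 2010.2, 4394 and 3289 normalized counts in the DMC libraries, against 618.8, 214.3, 358.8 and 546.2 in the MC libraries. Every DMC library was above every MC library, the lowest DMC value lying well clear of the highest MC value. The means were 2866 ± 1218 in DMC and 434.5 ± 183 in MC (SD, n = 4 each), a log2 difference of 2.73 (SE 0.389, 95% interval 1.91 to 3.56, limma adjusted p = 0.0441). The call sat close to the threshold. It was lost when any 1 of the 8 compared libraries was left out, and also without WT replicate 3 or DC replicate 1, 2 or 3, with log2 differences between 2.43 and 2.94 over all 16 libraries left out in turn. Bglap3 stood at 326.2, 730.9, 338.4 and 619.6 normalized counts in DC and at 99.0, 53.3, 62.8 and 37.3 in WT, so the order of the group means was DMC, DC, MC and WT, and DC and MC overlapped. The difference between DC and WT, which share no library with DMC and MC, was 2.97 in log2, every DC library being above every WT library. The interaction of both losses for Bglap3 was -0.24 (SE 0.55), with an unadjusted limma p of 0.671. The nearest tested neighbour, Paqr6, lies 75 bases away on the other strand and had 17.9 normalized counts in DMC and 9.65 in MC, with overlapping libraries. Smg5, the next, had 748.0 in DMC and 755.7 in MC.

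**Figure D1:**
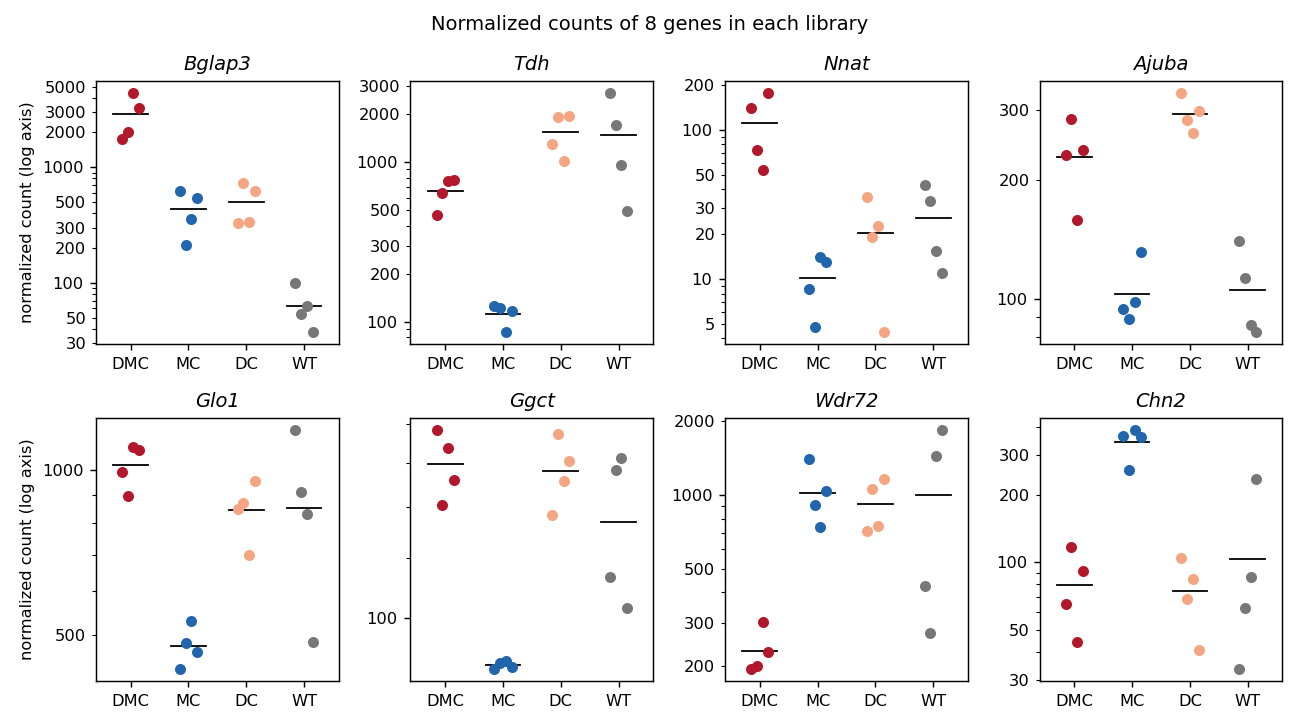
Normalized counts on a log axis for 8 genes, with a point for each of the 4 libraries of DMC, MC, DC and WT and a line at each group mean. DMC and MC libraries do not overlap in any of the 8 panels, DMC lying higher in the first 6 and lower for Wdr72 and Chn2.

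Of the 10 genes with the smallest p, 3 encode metabolic enzymes. Tdh encodes threonine dehydrogenase, which in mouse cells begins the breakdown of threonine into glycine and acetyl-CoA (chromosome 14, 63492347 to 63509092). Tdh had 464.5, 636.7, 762.9 and 774.0 normalized counts in DMC, against 125.0, 122.2, 85.9 and 116.1 in MC. The groups did not overlap, with a log2 difference of 2.53 (SE 0.386) and a limma adjusted p of 0.0509, on the far side of the threshold. Means of 1549 in DC and 1471 in WT were higher than that in either group with floxed Men1. Glo1, glyoxalase 1, which detoxifies methylglyoxal with glutathione, had 993.6, 897.9, 1105 and 1091 normalized counts in DMC and 432.6, 482.6, 528.6 and 464.3 in MC (log2 difference 1.10, limma adjusted p = 0.058). Ggct, a gamma-glutamylcyclotransferase of the glutathione cycle, had 176.7, 140.7, 167.2 and 151.7 in DMC and 85.8, 87.3, 87.9 and 86.3 in MC (log2 difference 0.86, limma adjusted p = 0.058). For both, MC had the lowest mean of the 4 groups, as Glo1 averaged 844.0 in DC and 854.4 in WT and Ggct 155.7 in DC and 133.8 in WT.

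Ajuba, a LIM domain protein that restrains the Hippo kinases Lats1 and Lats2, had 231.3, 284.9, 158.1 and 237.6 normalized counts in DMC and 94.4, 88.9, 98.0 and 131.3 in MC. No library overlapped, and the log2 difference was 1.12 (SE 0.200, limma adjusted p = 0.058). In DC it averaged 293.6 and in WT 105.2, again without overlap. Haus4, a subunit of the augmin complex that nucleates spindle microtubules, is its near neighbour on the minus strand of chromosome 14, with 12856 bases between the genes (Haus4 54541785 to 54554616, Ajuba 54567472 to 54577558). Haus4 had 152.1, 181.3, 116.3 and 160.8 normalized counts in DMC and 62.5, 34.9, 55.6 and 59.5 in MC (log2 difference 1.52, limma adjusted p = 0.0847). Its DMC and MC libraries did not overlap either. The neighbour on the other side of Ajuba, 4931414P19Rik, had 56.0 in DMC and 51.8 in MC.

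Nnat, the imprinted gene of neuronatin, a small membrane protein of neurons and islet cells, had 139.3, 73.1, 53.6 and 176.4 normalized counts in DMC and 8.58, 4.76, 14.2 and 13.1 in MC (log2 difference 3.27, SE 0.582, limma adjusted p = 0.058). It lies inside the span of Blcap, which had 249.4 in DMC and 259.4 in MC. All 4 DMC libraries were also above the DC and WT libraries, whose highest values were 35.5 and 42.4. Wdfy1, an endosomal protein gene, had 445.3, 410.7, 346.2 and 380.1 in DMC and 241.4, 239.7, 261.8 and 282.9 in MC (log2 difference 0.62, limma adjusted p = 0.058), with means of 390.7 in DC and 368.5 in WT. Here MC was the group that stood apart. The gene 9030025P20Rik on chromosome 17, to which no role is given here, had 47.4, 26.4, 47.0 and 47.5 in DMC and 9.80, 12.7, 7.07 and 10.2 in MC (log2 difference 1.96, limma adjusted p = 0.058).

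The remaining genes among the smallest p lay lower in DMC. Raet1e belongs to a family of closely similar ligands for the NKG2D receptor of natural killer cells, so its count is uncertain. It had 1.82, 3.38, 2.61 and 5.48 normalized counts in DMC and 22.1, 22.2, 31.3 and 18.1 in MC (log2 difference -2.54, limma adjusted p = 0.058). DC averaged 34.1 and WT 15.2. Gm10036, a processed pseudogene in the annotation, had 2.73, 1.35, 3.92 and 4.57 in DMC and 208.3, 409.6, 557.9 and 544.8 in MC, with 546.8 in WT replicate 4 and at most 8.16 in the other WT and the DC libraries. The DMC values are within a few reads of 0, as 3 reads come to 2.03 to 3.92 normalized counts in these libraries. A level that is high in some libraries of a group and far lower in others of the same genotype, as in WT, was also seen for Gm4737. It had 14.9 to 34.6 in DMC and 642.1 to 1257 in MC, and 33.6, 34.4, 1535 and 2004 in WT, so its low values were not near 0.

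WT replicate 4 was close to MC in more genes than these. Among the 170 genes with an unadjusted p under 0.01 and no overlap between DMC and MC, WT replicate 4 lay nearer to the MC mean than to the DMC mean in 125 (73.5%), whereas the other WT libraries did so in 46 to 82 and the DC libraries in 54 to 84. On chromosome 17, where Daxx lies, the count was 17 of 19 genes for WT replicate 4 and 2 to 8 for the other 7 libraries. For Glo1, for example, WT replicate 4 had 484.2 normalized counts and the other WT libraries 833.0 to 1186. For Hjurp the values were 474.4 in WT replicate 4 and 529.5, 1466 and 1505 in the others. Without WT replicate 4, which enters DMC against MC only through the shared estimate of the spread and the filter that sets the genes tested, 19 genes passed.

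By size of difference, 63 genes met the naming rule for higher values (unadjusted p under 0.01, no overlap, an established symbol and an average of 50 or more normalized counts) and 50 met it for lower values. Of the 10 largest positive differences, 2 were trypsinogens, the precursors of trypsin made by acinar cells. Prss1 had 28979, 38664, 132810 and 77809 normalized counts in DMC and 13816, 15360, 11218 and 13166 in MC (log2 difference 2.13, limma adjusted p = 0.375). Prss3 had 68913 to 267462 in DMC and 30114 to 57848 in MC (log2 difference 1.52, limma adjusted p = 0.559). DMC replicate 3 was the highest library for both. The trypsinogen Gm10334, named after its values were seen, had 25591 to 108386 in DMC and 6223 to 12699 in MC (log2 difference 2.30, limma adjusted p = 0.165). Mouse trypsinogens are near-identical copies in a single cluster on chromosome 6, so reads may have been divided among them. The trypsin inhibitor Spink1 had 14217 to 38376 in DMC and 10633 to 15248 in MC, with overlap (log2 difference 0.63, limma adjusted p = 0.895).

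Hjurp, the chaperone that loads the centromeric histone H3 variant CENP-A, had 1652, 1431, 1919 and 1780.0 normalized counts in DMC and 767.1, 535.0, 457.8 and 454.8 in MC (log2 difference 1.64, limma adjusted p = 0.11). Its libraries did not overlap. Dio1, a deiodinase that activates thyroid hormone, had 92.7 to 222.1 normalized counts in DMC and 6.13 to 37.0 in MC (log2 difference 2.58, limma adjusted p = 0.416). Vmn1r43, a vomeronasal receptor gene, had 51.2 to 329.2 in DMC and 11.1 to 26.3 in MC (log2 difference 2.6, limma adjusted p = 0.213). Sntg1, a syntrophin of the dystrophin complex, had 60.1 to 116.1 in DMC and 15.9 to 52.2 in MC (log2 difference 1.80, limma adjusted p = 0.38). None of these passed the test. The others of the 10 were Nnat, Bglap3, Tdh and Haus4.

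Among the genes that lay lower, Chn2, which encodes beta-chimaerin, a protein that switches off the GTPase Rac, had 65.6, 117.1, 44.4 and 91.4 normalized counts in DMC and 362.7, 257.2, 388.1 and 359.1 in MC. The log2 difference was -2.16 (limma adjusted p = 0.139), and DC averaged 74.5 and WT 103.9, so MC was the high group. Wdr72, a WD repeat gene known for its part in enamel formation, had 194.9, 200.3, 301.8 and 229.4 in DMC and 1407, 908.0, 739.8 and 1042 in MC (log2 difference -2.12, limma adjusted p = 0.139). Wdr72 averaged 922.7 in DC, whereas WT spread over 424.3, 273.0, 1442 and 1849, replicate 2 lying inside the DMC range. Tmc5, a gene of the transmembrane channel-like family, had 40.2 to 78.5 in DMC and 115.2 to 452.4 in MC (log2 difference -2.16, limma adjusted p = 0.244). The glutamine transporter Slc1a5 had 488.9 to 614.7 in DMC and 620.1 to 1668 in MC, MC replicate 1 lying far below the other 3 (log2 difference -1.11, limma adjusted p = 0.416). Ptk7, a pseudokinase receptor of planar cell polarity, had 315.1 to 421.3 in DMC and 613.0 to 873.7 in MC (log2 difference -1.02, limma adjusted p = 0.205). Others were Igfals, Col20a1, Atp6v0c and Hddc3, with log2 differences from -1.86 to -1.09 and limma adjusted p from 0.0862 to 0.588.

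The same floxed Daxx alleles were set beside WT in DC, where Men1 is intact and no library is shared with DMC or MC. DC carries Pdx1-Cre and no Cre is named for WT, so these groups can differ by Cre as well as by Daxx. There 3 of 14220 genes were called (0.0211%), and 47.3% of all differences were positive. An unadjusted p under 0.05 was found for 1665 genes (11.7%, of all genes 7.47% higher and 4.24% lower), and one under 0.01 for 527 (3.71%). The groups did not overlap in 5.49% of genes, 3.72% higher and 1.77% lower. Of the 220 genes with an unadjusted p under 0.01 in DMC against MC, 141 (64.1%) had the same sign in DC against WT, against 51% of all tested genes. The share was 70.6% (96 of 136) for genes higher in DMC and 53.6% (45 of 84) for genes lower in DMC. An unadjusted p under 0.01 with the same sign in both comparisons was found for 16 of them, 7.27% of the 220 genes and 3.04% of the 527 genes of DC against WT, against 2.1% of all tested genes. With the opposite sign there were 4 of the 220, all lower in DMC. Over all tested genes there were 228 of 14220 with the opposite sign and a p under 0.01 in DC against WT, a similar share. The log2 differences of the 220 genes had a Pearson correlation of 0.22 between the comparisons, against 0.0156 over all tested genes, which is a description across genes fitted together and without a test. Higher in both were 13 genes, and in 10 of these neither pair of groups overlapped. Lower in both were 3, of which 2 did not overlap. Over all tested genes, 2.14% lay higher without overlap in DMC against MC and 3.72% in DC against WT. The shares lower without overlap were 1.86% and 1.77%, and the share free of overlap in both comparisons was not counted. As these genes were picked by a small p in both comparisons, the lack of overlap was largely built in and adds no support. The genes in this paragraph and the next were picked after their values were seen.

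Besides Bglap3 and Ajuba, the genes higher in both comparisons without overlap included 3 whose WT means amounted to a few reads. Neto1, an auxiliary subunit of kainate receptors, had 26.4, 35.2, 15.7 and 30.2 normalized counts in DMC and 4.90, 3.17, 2.02 and 0.725 in MC (log2 difference 2.99, limma adjusted p = 0.058), and averaged 28.7 in DC and 2.63 in WT. Pcdh11x, an X-linked protocadherin, had 71.9, 63.6, 84.9 and 96.9 in DMC and 4.90, 9.52, 19.2 and 14.5 in MC (log2 difference 2.75, limma adjusted p = 0.139), and averaged 26.5 in DC and 1.84 in WT. Pax1, a paired box transcription factor, averaged 15.2 in DMC, 1.90 in MC, 7.87 in DC and 1.18 in WT, so MC and WT were both at the level of a few reads. It passed the filter of 10 normalized counts in 4 libraries through DMC replicates 1, 2 and 4 and DC replicate 2 alone. Pax1 was tested in 12 of the 16 fits that left out 1 library. The filter thus favoured its place among the genes higher in both comparisons. The others were Cd209a, a lectin of dendritic cells (57.2 in DMC, 14.1 in MC, 99.2 in DC and 33.8 in WT), the lactate receptor Hcar1 (26.4, 8.89, 25.9 and 8.96 in the same order), the testican Spock3 (37.9, 16.0, 70.8 and 18.7), the sulfotransferase Sult5a1 (118.7, 55.5, 100.1 and 38.1) and ccdc198. Lower in both without overlap were Cmpk2, an interferon-stimulated mitochondrial kinase (228.3 in DMC, 365.4 in MC, 145.8 in DC and 216.8 in WT), and Smim3, a small membrane protein gene (72.3, 122.7, 50.6 and 84.4).

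**Figure D2:**
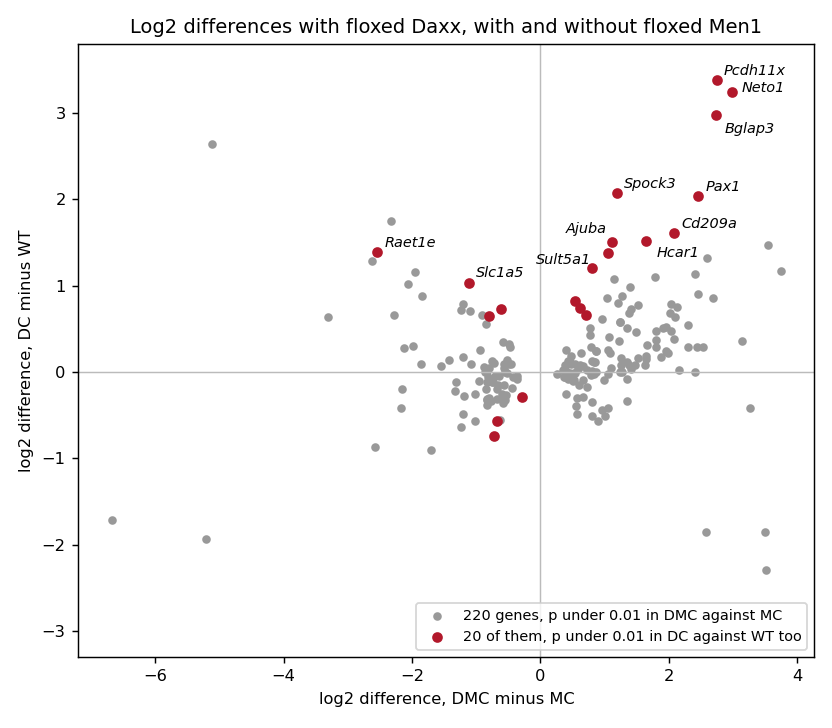
Log2 difference DMC minus MC (x axis) against DC minus WT (y axis) for the 220 genes with an unadjusted limma p under 0.01 in DMC against MC, the 20 that also had one in DC against WT being red. Bglap3, Neto1 and Pcdh11x lie at the upper right, and 4 red genes lie at the upper left with opposite signs.

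No gene passed the interaction test, which asked whether DMC minus MC differed from DC minus WT. As no Cre is named for WT, the interaction cannot separate dependence on Men1 from the presence of Cre. The interaction had 0 called genes of 14220 in limma (0%), the smallest adjusted p being 0.0817, with 1156 genes (8.13%) at an unadjusted p under 0.05. The tool edgeR also called 0 and DESeq2 43. The 5 genes with the smallest p were lower in DMC than in MC and higher in DC than in WT. Steap3, a metalloreductase of iron uptake, had 157.7 to 185.5 normalized counts in DMC and 220.3 to 361.9 in MC, and 242.1 to 303.6 in DC and 159.1 to 215.7 in WT, with an interaction of -1.46 in log2 (limma adjusted p = 0.0817). Raet1e followed (-3.93, limma adjusted p = 0.0817). Itgbl1, an integrin beta-like gene, had log2 differences of -0.68 in DMC minus MC and 1.41 in DC minus WT. The fibroblast growth factor receptor gene Fgfr3 had -0.41 and 0.83, and Gm4737 had -5.12 and 2.64. Slc1a5 and Lox, a collagen cross-linking enzyme, also had an unadjusted p under 0.01 with opposite signs in both comparisons.

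Genes close to Daxx on chromosome 17 were described because they can travel with the floxed alleles. Within 5 Mb on either side, 192 genes were tested and 0 were called (background 0.00703%). In 16 of them (8.33%, background 4%) DMC and MC did not overlap, 13 with DMC higher (background 2.14%) and 3 with DMC lower (1.86%). The share was 7.58% within 2 Mb and 7.34% within 10 Mb, and over the whole chromosome 48 of 693 genes (6.93%). At an unadjusted p under 0.01 there were 22 genes on chromosome 17 (3.17%, background 1.55%), while chromosomes 14, 6 and 4 had 3.53%, 3.02% and 2.70%. In DC against WT, 7 of the same 192 genes did not overlap (3.65%), against 5.49% of all genes.

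Of the 16 genes, Glo1 (3.31 Mb from Daxx) had the smallest p. Of its 4 nearest tested neighbours 3 had positive log2 differences: 0.37 for Btbd9, whose libraries did not overlap (419.4 to 468.9 normalized counts in DMC, 299.2 to 359.0 in MC), 1.66 for Dnah8 and 0.33 for Glp1r, both with overlap. The other, Zfand3, had -0.12 with overlap. Nearer to Daxx, the zinc finger gene Zfp955b had 124.8, 137.4, 152.8 and 154.4 in DMC and 80.9, 82.5, 92.0 and 73.3 in MC (log2 difference 0.78, limma adjusted p = 0.139). Cyp4f14, a fatty acid hydroxylase gene, had 17.6 to 43.1 in DMC and 8.09 to 14.3 in MC (log2 difference 1.36, limma adjusted p = 0.311). The antigen presentation gene H2-T22 had 320.7 to 466.9 in DMC and 229.4 to 262.6 in MC (log2 difference 0.58, limma adjusted p = 0.805), one of 4 genes of that list of 27 whose libraries did not overlap, all higher. In DMC against MC, a haplotype linked to the floxed allele and the loss of Daxx cannot be told apart for these genes. WT replicate 4, labelled wild type, lay nearer to the MC mean in 17 of 19 genes of the chromosome, as given above. The cause of that was not tested.

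**Figure D3:**
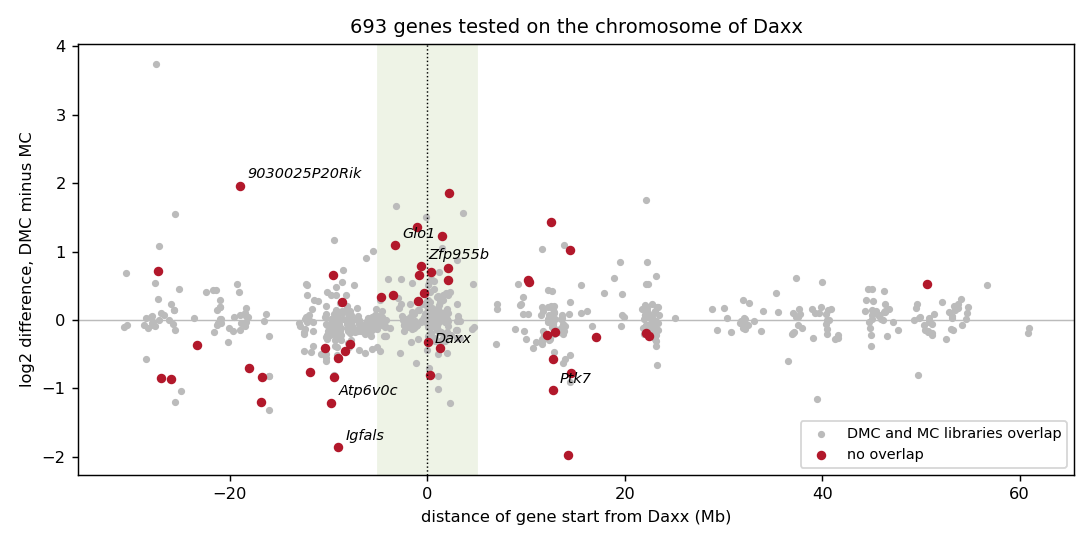
Log2 difference DMC minus MC for the 693 tested genes of the chromosome of Daxx, by the distance of the gene from Daxx in Mb, with red points where the 4 DMC and 4 MC libraries do not overlap and a band over 5 Mb on either side. Of the 192 genes in the band 16 are red, 13 of them above 0.

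The 31 gene lists below cover pathways and the cell types of the pancreas. Apart from Bglap3, 0 of their members were called (background 0.00703%), so they are described by the number of members at an unadjusted limma p under 0.05 (background 5.57%, as 3.19% higher and 2.38% lower) and by their median log2 difference, which was 0.01 over all tested genes. In whole tissue, fewer cells of a type and less RNA per cell cannot be told apart. The level of a list in a library is the mean log2 of its members, less its mean over the 16 libraries. The clock level is instead the contrast described above.

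**Figure D4:**
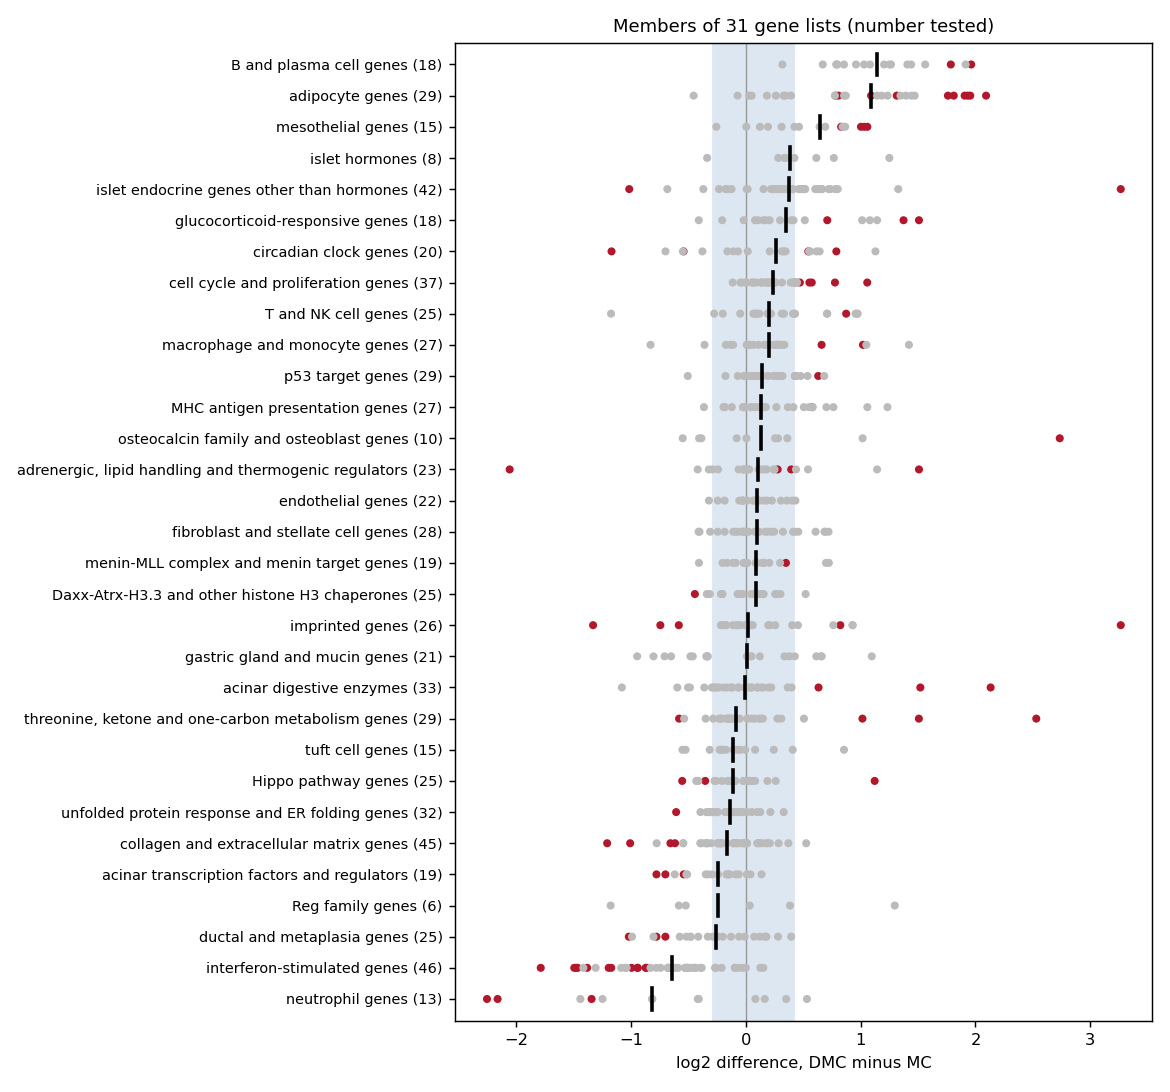
Log2 difference DMC minus MC of each member of 31 gene lists, with the number tested in brackets, red where the unadjusted limma p is under 0.05 and a black line at the list median. The blue band runs from the 10th to the 90th percentile of all tested genes (-0.29 to 0.42), and B and plasma cell, adipocyte and mesothelial medians lie above it while neutrophil and interferon-stimulated medians lie below it.

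Mesothelial genes mark the lining of the abdominal organs, and 14 of the 15 had a positive difference (median 0.64). At an unadjusted p under 0.05 lay 4 members, all higher, and 8 members had no overlap, all higher (background 2.14%). Cldn15, a claudin, had 129.3, 97.4, 82.3 and 101.4 normalized counts in DMC and 35.5, 58.7, 46.5 and 55.1 in MC (log2 difference 1.06, limma adjusted p = 0.641). Slpi, a secreted protease inhibitor, had 146.2 to 218.6 in DMC and 65.3 to 120.3 in MC, and Nkain4, a partner of the sodium pump, had 62.7 to 141.2 in DMC and 34.9 to 61.7 in MC. The level of the list was 0.185 to 0.68 in DMC and -0.316 to 0.113 in MC, without overlap. The defining marker Msln, mesothelin, had a log2 difference of 0.12 and overlapping libraries. Leaving out single libraries gave medians of 0.54 to 0.74.

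Of 29 adipocyte genes 27 had a positive difference (median 1.09), and 10 had an unadjusted p under 0.05, all higher, but 0 members were free of overlap. The fat cell regulator Pparg had 132.1, 119.1, 84.9 and 56.7 normalized counts in DMC and 52.7, 39.7, 69.7 and 53.7 in MC (log2 difference 0.81, limma adjusted p = 0.559). Plin4, a lipid droplet coat gene, had 1321, 677.3, 188.1 and 123.4 in DMC and 76.0, 71.4, 354.8 and 79.8 in MC. Adipoq, the gene of the fat cell hormone adiponectin, had 1117, 569.7, 197.3 and 74.9 in DMC and 50.2, 50.8, 190.0 and 124.0 in MC. DMC replicates 1 and 2 were high, and the other 2 lay within or near the MC range. Summed adipocyte counts were 9238 to 28681 in DMC and 9467 to 12328 in MC, and Aqp7 was at 0 in MC replicates 1 and 2. Between the libraries that express Y-linked genes, 2 in each group, the mean difference of the list was 1.63. Between those that do not, also 2 in each group, it was 0.321. The median was 0.66 to 1.49 with single libraries left out. The part of adipocyte markers in the other differences was not tested.

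All 18 tested B and plasma cell genes had a positive difference (median 1.14), and 2 had an unadjusted p under 0.05. Jchain, which joins secreted antibody into polymers, had 4079, 2435, 2780 and 672.5 normalized counts in DMC and 251.2, 331.8, 977.3 and 980.0 in MC (log2 difference 1.96, limma adjusted p = 0.488). Mzb1, a chaperone of antibody secretion, had 19.2 to 127.9 in DMC and 6.13 to 38.4 in MC. The level of the list was 1.20, 1.74, -0.585 and -1.92 in the DMC libraries and -1.58, -1.48, 0.527 and -1.73 in the MC libraries. DMC replicates 1 and 2 were high, and MC replicate 3 stood apart from its group. The median was 0.52 to 1.91 with single libraries left out. With lymphoid marker level as a covariate it was 0.07. That level is the mean of these genes and of the T and NK cell genes, so a fall was built in. In DC against WT 2 of the 18 were positive, with a median of -1.13. For T and NK cells 21 of 25 genes were positive (median 0.20, from -0.33 to 0.75 with single libraries left out), against 3 of 25 in DC against WT (median -1.05), and for macrophages 22 of 27 (median 0.20), among them the lipid receptor Trem2 (74.5 to 200.4 in DMC, 44.4 to 62.4 in MC).

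Neutrophil genes lay lower, with a median of -0.82 over 13 tested members, 9 of them negative and 3 at an unadjusted p under 0.05. The calprotectin subunit S100a9 had 5.46, 8.12, 19.6 and 1.83 normalized counts in DMC and 39.2, 19.05, 67.7 and 31.2 in MC (log2 difference -2.26, limma adjusted p = 0.842). The inflammatory cytokine Il1b had 6.38, 12.2, 22.2 and 25.6 in DMC and 40.4, 33.3, 28.3 and 58.8 in MC, without overlap (log2 difference -1.34, limma adjusted p = 0.753). Both levels are low, and Cxcr2, the receptor that marks these cells, was at 0 in DMC replicate 1. Summed neutrophil counts overlapped, at 415.8 to 795.0 in DMC and 461.9 to 827.0 in MC. In DC against WT the median of the list was 1.04.

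Of 46 interferon-stimulated genes 43 had a negative difference (median -0.64), and 13 had an unadjusted p under 0.05, all lower, 4 of them without overlap (background 1.86%). Herc6, a ligase that attaches the ubiquitin-like protein ISG15 in mice, had 113.8, 180.0, 108.4 and 97.8 normalized counts in DMC and 256.1, 208.0, 188.0 and 248.1 in MC (log2 difference -0.87, limma adjusted p = 0.612). Isg15 itself had 23.7, 71.7, 14.4 and 36.6 in DMC and 133.6, 123.8, 61.7 and 138.6 in MC (log2 difference -1.79, limma adjusted p = 0.665). The level of the list was -0.36, 0.729, -0.672 and -0.233 in DMC and 0.68, 0.61, 0.0613 and 0.895 in MC. DMC replicate 2 lay inside the MC range and MC replicate 3 was the low MC library, and Ifi44l was at 0 in all 8 libraries. The median was -0.88 to -0.46 with single libraries left out. Between libraries that express Y-linked genes the mean difference was -1.16 and between the others -0.23, with 2 libraries of each group on either side. In DC against WT the median was 0.29.

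**Figure D5:**
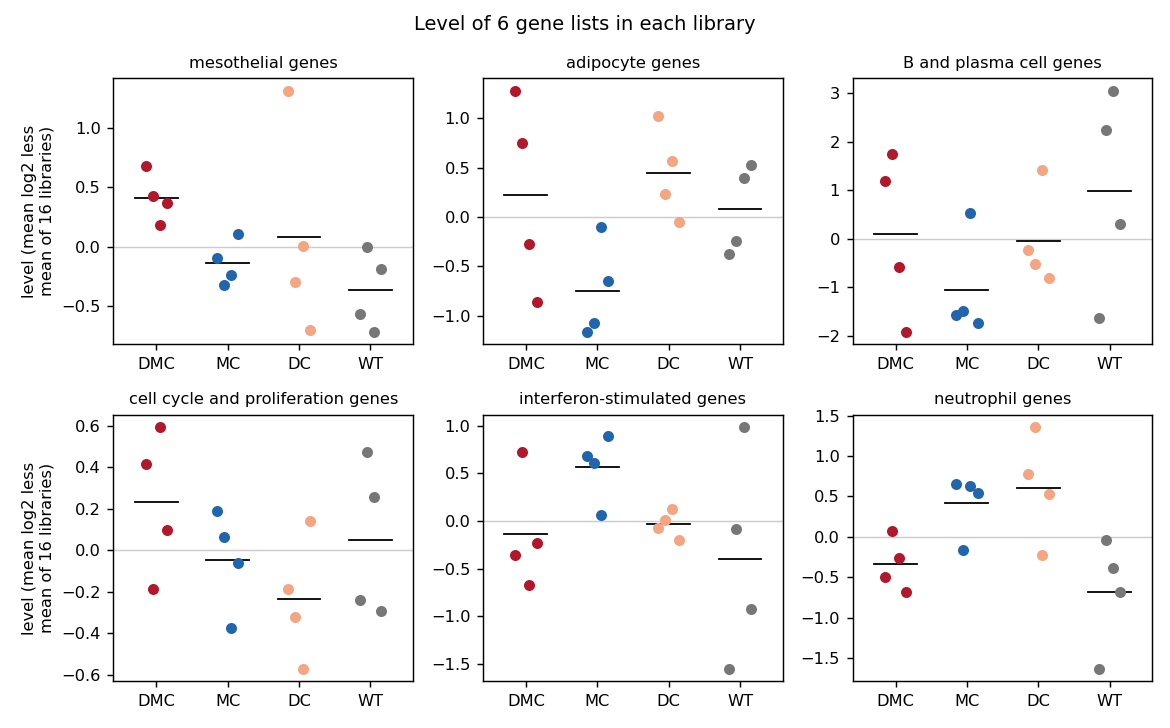
Level of 6 gene lists (mean log2 of the members less their mean over 16 libraries) in each library of DMC, MC, DC and WT, with a line at each group mean. DMC and MC are apart in the mesothelial list alone of the 6, and single libraries overlap the other group in the other 5.

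Of 37 cell cycle genes 33 had a positive difference (median 0.24), and 6 lay at an unadjusted p under 0.05, all higher. The 3 members with the smallest p are described. Mcm6, a subunit of the replicative helicase, had 689.4, 562.3, 708.0 and 1061 normalized counts in DMC and 341.9, 211.1, 534.7 and 399.7 in MC, without overlap (log2 difference 1.06, limma adjusted p = 0.488). Pcna, the sliding clamp, had 505.4 to 691.7 in DMC and 285.7 to 444.0 in MC, also without overlap, and Mcm5 had 272.7 to 563.8 and 228.6 to 274.2 with overlap. The median was 0.08 to 0.39 with single libraries left out. The level of the list was -0.187 to 0.592 in DMC and -0.373 to 0.188 in MC. In DC against WT 2 of the 37 members were positive and the median was -0.28. Of 29 p53 target genes 24 were positive, with a median of 0.14, the epoxide hydrolase gene Ephx1 lying higher without overlap (574.5 to 710.4 in DMC, 415.9 to 522.5 in MC).

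Epithelial lists had medians near 0 or slightly apart from it. Acinar digestive enzymes had a median of -0.01, with 16 of 33 members positive and log2 differences from -1.08 for Ctrc, a chymotrypsin, to 2.13 for Prss1. Acinar transcription factors had a median of -0.24, with 16 of 19 negative and 3 at an unadjusted p under 0.05. Ductal and metaplasia genes had a median of -0.26, with 19 of 25 negative, and its level did not overlap between DMC (-0.171 to 0.181) and MC (0.22 to 0.717). Cftr, the chloride channel of duct cells, had 58.3, 76.5, 64.0 and 54.8 normalized counts in DMC and 140.9, 119.1, 97.0 and 167.6 in MC, without overlap (log2 difference -1.02, limma adjusted p = 0.612). Sox9, a transcription factor of duct and progenitor cells, had 119.3 to 376.2 in DMC and 316.4 to 431.6 in MC. Reg genes, secreted in pancreatic injury, had a median of -0.25 over 6 members, Reg2 ranging from 10941 to 120085 in DMC and from 55464 to 77350 in MC. Gastric gland and mucin genes had a median of 0.01. Islet hormones had a median of 0.38, with Ins2 at 13502 to 51193 in DMC and 7046 to 31426 in MC, and 0 of 8 members at an unadjusted p under 0.05. That median ranged from -0.018 to 0.72 with single libraries left out. In the islet list without hormones 35 of 42 were positive, with a median of 0.38 (0.013 to 0.71 with single libraries left out), led by Nnat, while Ero1lb, an oxidase of the endoplasmic reticulum, lay lower (3098 to 6514.5 in DMC, 5950.5 to 11897 in MC).

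The lists of Daxx and of menin partners had medians near 0. Of 25 histone H3 chaperone genes 15 were positive, with a median of 0.08 and a range of -0.44 to 0.52, and Daxx was the 1 member at an unadjusted p under 0.05. Of 19 menin complex and target genes 12 were positive, with a median of 0.08 and a range of -0.41 to 0.72, and Men1 was the 1 such member. Hippo pathway genes had a median of -0.11, with 17 of 25 negative. Ajuba lay higher while Nf2, the upstream tumour suppressor merlin, had 678.5, 773.4, 785.1 and 759.4 normalized counts in DMC and 1279, 1270.0, 922.8 and 972.8 in MC, without overlap (log2 difference -0.55, limma adjusted p = 0.472), and Amotl2 had 578.3 to 708.0 in DMC and 689.3 to 941.4 in MC. Collagen and matrix genes had a median of -0.17, with 33 of 45 negative and 4 at an unadjusted p under 0.05, all lower. Col8a1 had 46.6 to 137.5 in DMC and 133.4 to 225.5 in MC, and Col16a1 243.0 to 492.5 in DMC and 498.3 to 801.6 in MC. In DC against WT 44 of the 45 were positive, with a median of 0.75.

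Among metabolic and hormonal lists, Tdh was the leading member of the threonine, ketone and one-carbon list, whose median was -0.09. Bdh1, an enzyme of ketone body metabolism, lay higher with overlap (35.5 to 65.3 in DMC, 11.03 to 55.1 in MC). Imprinted genes had a median of 0.02. Nnat was high in DMC, while the placental growth restrictor Phlda2 (2.71 to 7.31 in DMC, 10.2 to 17.2 in MC) and its neighbour Slc22a18 (23.5 to 45.7 in DMC, 56.4 to 74.0 in MC) lay lower without overlap. The DMC values of Phlda2 are a few reads, as 3 reads come to 2.03 to 3.92 normalized counts there. Its log2 difference of -1.33 ranged from -1.75 to -0.71 over the alternatives that kept all libraries. Glucocorticoid-responsive genes had a median of 0.35, with 15 of 18 positive. Zbtb16, a transcription factor induced by glucocorticoids, had 1010.0, 1918, 327.9 and 268.7 in DMC and 251.2, 192.1, 357.8 and 217.6 in MC (log2 difference 1.37, limma adjusted p = 0.753). Circadian clock genes had a median of 0.26, the clock repressors Cry2 (201.2 to 372.1 in DMC, 161.0 to 209.2 in MC) and Nr1d2 (465.0 to 1779.5 in DMC, 357.2 to 557.8 in MC) being highest in DMC replicate 2. That library also had the highest clock level of the 8. Dio2, another thyroid hormone deiodinase, had 6.38, 17.6, 6.53 and 16.4 in DMC and 56.4, 20.6, 51.5 and 82.0 in MC, without overlap (log2 difference -2.06, limma adjusted p = 0.337). Fibroblast, endothelial, tuft cell and protein folding lists had medians from -0.14 to 0.09.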

How the data were processed

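Total RNA of whole pancreas was sequenced with a stranded kit, per the labels' protocols. Alignment with STAR 2.6.0b to GRCm38 and use of DESeq2 (version not given) are named in the submitters' processing notes, while nothing used here names the read counter, its strand setting or its gene filter. What was deposited is a signal per gene that the authors obtained by dividing read counts by a size factor for each library, since each column holds whole multiples of one step. Dividing by that step gave whole reads for 100% of values within 0.01 reads.

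Of 15156 genes, 14220 with at least 10 normalized counts in at least 4 libraries were tested on log2(normalized count + 1) with limma 3.58.1 (R 4.3.3, empirical Bayes with an intensity trend) over all 16 libraries, for DMC minus MC, DC minus WT and their interaction, with Benjamini-Hochberg adjustment over all genes and a threshold of 0.05. A fold change on this scale understates the difference of low genes. On recovered reads, edgeR 4.0.16 (quasi-likelihood) called 1 gene and DESeq2 1.42.0 called 56 in DMC against MC. Floxed genes were also tested by exact permutation. Of the gene identifiers, 15152 were found in GENCODE release 21 for GRCm38 and 4 were not. The code was tested on simulated data. Named genes were the floxed genes and H3.3 partners, called genes, the 10 smallest p, the 10 largest differences in each direction, up to 5 members of each list and the 5 smallest interaction p. Members and lists were chosen with earlier results of these data known, and genes outside that rule are said to be so or are neighbours. Library sizes limit precision, as 3 reads correspond to 2.03 to 4.76 normalized counts in the 8 libraries. Some genes that meet the rule are not reported here.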

Additional observations from a re-analysis of the deposited data

Results flagged for a closer look

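In 19 of 254 groups of 4 libraries checked (7.48%), 1 library stood further from its group than Dixon's test at the 95% level allows, where chance gives about 1 in 20. Among genes, 9030025P20Rik had 26.4 normalized counts in DMC replicate 2, against 47.0 to 47.5 in the other DMC libraries, and Col20a1 had 77.1 in DMC replicate 3, against 101.5 to 105.6. The other flagged gene values were in MC. Slc1a5 had 620.1 in MC replicate 1, the other 3 having 1457 to 1668, and Cd163, a scavenger receptor of macrophages, had 356.6 there, the others having 192.2 to 212.7. In MC replicate 2, Fgfr3 had 763.6 (others 609.5 to 621.3) and Pcna had 285.7 (others 418.4 to 444.0). In MC replicate 3, Isg15 had 61.7 (others 123.8 to 138.6), Plin4 had 354.8 (others 71.4 to 79.8) and Btbd9 had 299.2 (others 355.4 to 359.0). In MC replicate 4, Col16a1 had 801.6 (others 498.3 to 525.5).

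Among list levels, DMC replicate 1 had -0.171 for ductal genes, and DMC replicate 3 had -0.346 for fibroblast genes and -0.341 for endothelial genes, each the lowest DMC library. MC replicate 1 was highest for Reg genes (0.899), MC replicate 2 lowest for neutrophil genes (-0.168) and MC replicate 4 highest for collagen genes (0.431). MC replicate 3 was lowest for histone H3 chaperones (-0.113) and for Hippo pathway genes (-0.106) and highest for B and plasma cell genes (0.527).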

How the results depend on the processing

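The results were recomputed under 31 alternatives, 16 of them leaving out 1 library each. The number of genes past the threshold in DMC against MC, 1 in the reported test, was 7 with a pseudocount of 8, 2 with a filter at 50 normalized counts, 2 with TMM scaling, 10 with quantile scaling, 10 with only the compared groups, 0 with robust moderation, 35 with library quality weights, 56 with DESeq2, 2 with Y-linked level, 0 with clock level and 4 with lymphoid level as a covariate, and 0 to 19 with single libraries left out (0 without any of the 8 compared, and 19 without WT replicate 4). For DC against WT, 3 in the reported test, the count was 1 with only the compared groups, 177 with quality weights, 281 with DESeq2, 0 with clock level, 12 with lymphoid level, and 0 to 19 with single libraries left out. For the interaction, 0 in the reported test, it was 2 with a pseudocount of 8, 11 with quality weights, 43 with DESeq2, 1 with Y-linked level, and 0 to 8 with single libraries left out. The cause was not tested.

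Bglap3 was higher in DMC under all 31, with log2 differences of 2.43 to 2.94 and adjusted p from 8.622e-09 to 0.1716 (limma, edgeR or DESeq2), and lost the threshold under 15. Tdh and Ajuba also kept their direction, and were past the threshold under 12 and 5. H3f3b changed sign with library quality weights (-0.012), without MC replicate 1 (-0.0012) and without DMC replicate 4 (-0.012), its range with single libraries left out ending at 0.11. H3f3a changed sign without MC replicate 1 (-0.041) and ranged up to 0.19. Of 961 recomputed list medians 39, in 11 lists, had the opposite sign to the reported one, among them gastric (-0.33 to 0.10), acinar enzyme (-0.23 to 0.13), T and NK cell (-0.51 to 0.75), MHC (-0.20 to 0.29) and islet hormone (-0.018 to 0.90) genes. By more than the spread between libraries 7 moved, among them that of clock genes, -0.11 with clock level as a covariate and -0.012 without DMC replicate 2, and that of neutrophil genes, -0.16 with the filter at 50. The clock level is itself computed from clock genes, so the first of these shifts was built in. With the replicate number as a block, 0 genes passed in DMC against MC and Bglap3 had a limma adjusted p of 0.0957. The numbers did not pair the libraries, as same-number correlations ran from -0.354 to 0.384 and 2 of 4 were over 0.1. Depth limits genes near 3 reads, and 4 libraries a group limit all of the above.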
